A study of Mus musculus with 8 samples.

Results

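The 10 genes described here encode 4 endothelial adhesion molecules (Sele, Selp, Icam1 and Vcam1) and 6 proteins by which blood or lymphatic vessels are recognised (Pecam1, Cdh5, Kdr, Tek, Vwf and Lyve1). They were taken by symbol from the 22180 genes measured on whole-transcript arrays, and all 10 were found, each by a single probe set. The arrays held RNA from the middle colon of 8 female mice aged 9 weeks, all treated with DSS (dextran sulfate sodium, which damages the lining of the colon) at 4% in the drinking water for 7 days and then with plain water for 5 days. Tissue was taken on day 12 from 4 knockout mice (KO, Trim58-/-, strain C57BL/6-Trim58tm2313Arte), which per the labels lack the ubiquitin ligase gene Trim58, and from 4 wild type mice of the same strain name (WT, Trim58+/+). Each mouse gave 1 array, every mouse had colitis, and no untreated colon was analysed here.

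Leukocytes leave the blood in steps. Selectins on activated endothelium slow them by binding sugars on their surface, and the immunoglobulin-family molecules ICAM-1 and VCAM-1 then hold them through integrins. Resting endothelium makes little E-selectin, and cytokines such as interleukin-1 and tumour necrosis factor induce the adhesion genes, in large part through the transcription factor NF-kB. Genes of vessel identity are made by endothelium whether or not it is activated. P-selectin and von Willebrand factor also occur in platelets, ICAM-1 in leukocytes and epithelium, VCAM-1 in stromal cells, PECAM-1 in leukocytes and LYVE-1 in some macrophages, so whole-colon RNA does not assign these transcripts to endothelium alone. In such bulk tissue, a change in the number of cells of a type and a change in the RNA per cell cannot be told apart.

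The sequences upstream of the adhesion genes that passed the test are shown with that of a vessel gene, Kdr, because NF-kB and STAT factors are known to act on adhesion gene promoters. They are the 250 bases before the annotated start from RefSeq (GRCm38.p6), and the promoter table used here had entries for 5 of the 10 genes (Sele, Selp, Icam1, Kdr and Tek). Capitals mark matches on either strand to the NF-kB consensus, to its variant GGAAATTCC or to the STAT motif TTCNNNGAA, which overlap in Sele.
Sele (chr1:164047984-164048233, plus strand): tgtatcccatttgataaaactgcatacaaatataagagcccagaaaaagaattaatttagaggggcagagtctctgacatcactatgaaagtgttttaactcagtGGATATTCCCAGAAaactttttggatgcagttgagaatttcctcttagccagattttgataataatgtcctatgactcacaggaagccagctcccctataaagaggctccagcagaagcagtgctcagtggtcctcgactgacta
Selp (chr1:164115014-164115263, plus strand): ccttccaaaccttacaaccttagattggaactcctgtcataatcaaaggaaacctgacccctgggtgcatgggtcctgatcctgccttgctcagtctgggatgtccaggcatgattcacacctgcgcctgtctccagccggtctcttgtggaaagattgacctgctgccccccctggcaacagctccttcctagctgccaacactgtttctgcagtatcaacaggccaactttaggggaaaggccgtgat
Icam1 (chr9:21015690-21015939, plus strand): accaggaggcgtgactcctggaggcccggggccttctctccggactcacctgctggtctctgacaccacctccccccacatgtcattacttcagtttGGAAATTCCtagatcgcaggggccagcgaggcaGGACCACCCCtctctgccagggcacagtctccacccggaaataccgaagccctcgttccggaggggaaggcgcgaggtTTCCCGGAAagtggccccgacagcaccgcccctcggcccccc
Kdr (chr5:75978456-75978705, minus strand): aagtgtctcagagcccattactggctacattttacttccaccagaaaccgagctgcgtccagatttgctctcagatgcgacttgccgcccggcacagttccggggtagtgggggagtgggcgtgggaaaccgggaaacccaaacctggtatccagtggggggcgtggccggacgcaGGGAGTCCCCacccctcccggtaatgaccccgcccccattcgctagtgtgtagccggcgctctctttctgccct

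Over 32851 windows of the same length, 23.2% held the NF-kB consensus, 0.286% the variant GGAAATTCC and 7.02% the STAT motif. Sele carried GGATATTCCC 145 bases before the start, with TTCCCAGAA overlapping it from 140 bases. Icam1 carried GGAAATTCC at 153 bases, GGACCACCCC at 120 and TTCCCGGAA at 42. Kdr held GGGAGTCCCC at 74 bases, while the windows of Selp and Tek held none of these letters. Sele also held the AP-1 motif TGACTCA and the TATA box TATAAA, found in 4.46% and 12.4% of windows. The ETS core GGAA was in 93.4% of all windows and in all 5 of these. A match is a description of letters and not a measured binding site.

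Of the 4 adhesion genes, 3 rose (Selp 2.93-fold, Icam1 1.73-fold and Sele 1.66-fold) and Vcam1, at 1.84-fold, missed the threshold. None of the 6 vessel genes passed, with differences between 1.04-fold (Tek) and 1.37-fold (Cdh5). Pancreatic enzyme RNA stood in 3 of the 4 KO arrays and was not raised in any WT array. With its mean level as a covariate all 3 calls were lost (limma adjusted p = 0.493 for Selp, 0.667 for Icam1 and 0.690 for Sele). The log2 difference of Selp was then 0.99 in place of 1.55 and that of Sele 0.59 in place of 0.73. Icam1 had 0.81 in place of 0.79, and Vcam1 0.88 in both fits. That fit called 2 genes higher and 0 lower over all genes. Because the covariate was high only in KO arrays, its part and that of genotype cannot be fully told apart. Without 1 array in turn, Selp kept its call in 7 of 8 fits, Sele in 3 and Icam1 in 2. Values are array signals on the log2 scale, and a gene passed at a limma p under 0.05 after Benjamini-Hochberg adjustment over all 22180 genes. By that rule 0.392% of all genes were higher and 0.185% lower in KO.

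P-selectin is stored in endothelial granules and in platelets, and its gene in mice also responds to inflammatory cytokines. Selp read 8.39, 8.74, 7.71 and 8.30 in KO replicates 1 to 4, against 7.05, 6.83, 6.48 and 6.58 in WT replicates 1 to 4. The groups were apart by 0.66, the distance between the lowest KO and the highest WT array, and KO replicate 3 was the lowest of its group. The log2 difference was 1.55 ± 0.20 (SE, n = 4 each; 95% interval 1.10 to 1.999; limma adjusted p = 0.0122), the widest of the 10 genes.

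E-selectin appears on endothelium after cytokine stimulation and binds neutrophils. Sele read 5.76, 5.61, 5.34 and 5.31 in KO replicates 1 to 4, against 4.85, 4.81, 4.84 and 4.61 in WT replicates 1 to 4. All KO arrays were above all WT arrays by at least 0.47, with WT replicate 4 lowest. The log2 difference was 0.73 ± 0.11 (SE, n = 4 each; 95% interval 0.48 to 0.98; limma adjusted p = 0.0237). Sele was dim. Its KO mean was 5.50 ± 0.22 and its WT mean 4.78 ± 0.11 (log2, SD, n = 4 each), where the 95th percentile of 1088 odorant receptor genes, used as a guide to signal without expression, lay at 5.49. Near background RMA compresses differences, so the fold may be understated.

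ICAM-1 binds the leukocyte integrins LFA-1 and Mac-1. Icam1 read 7.77, 8.26, 7.99 and 7.75 in KO replicates 1 to 4, against 7.36, 7.08, 6.91 and 7.28 in WT replicates 1 to 4. The groups did not overlap and were apart by 0.39. The log2 difference was 0.79 ± 0.14 (SE, n = 4 each; 95% interval 0.49 to 1.09; limma adjusted p = 0.0361). Unlike Selp, Icam1 was not lowest in KO replicate 3, which lay second highest of its group.

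VCAM-1 holds lymphocytes, monocytes and eosinophils through the integrin VLA-4. Vcam1 read 8.78, 9.15, 9.03 and 9.09 in KO replicates 1 to 4, against 8.43, 8.17, 7.57 and 8.38 in WT replicates 1 to 4. The groups were apart by 0.36, and WT replicate 3 was well below the rest of its group. The log2 difference of 0.88 ± 0.18 (SE, n = 4 each; 95% interval 0.49 to 1.27) was numerically above that of Icam1 but did not pass (limma adjusted p = 0.0625). The WT spread of 0.40 was wider than the KO spread of 0.16 (SD).

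**Figure D1:**
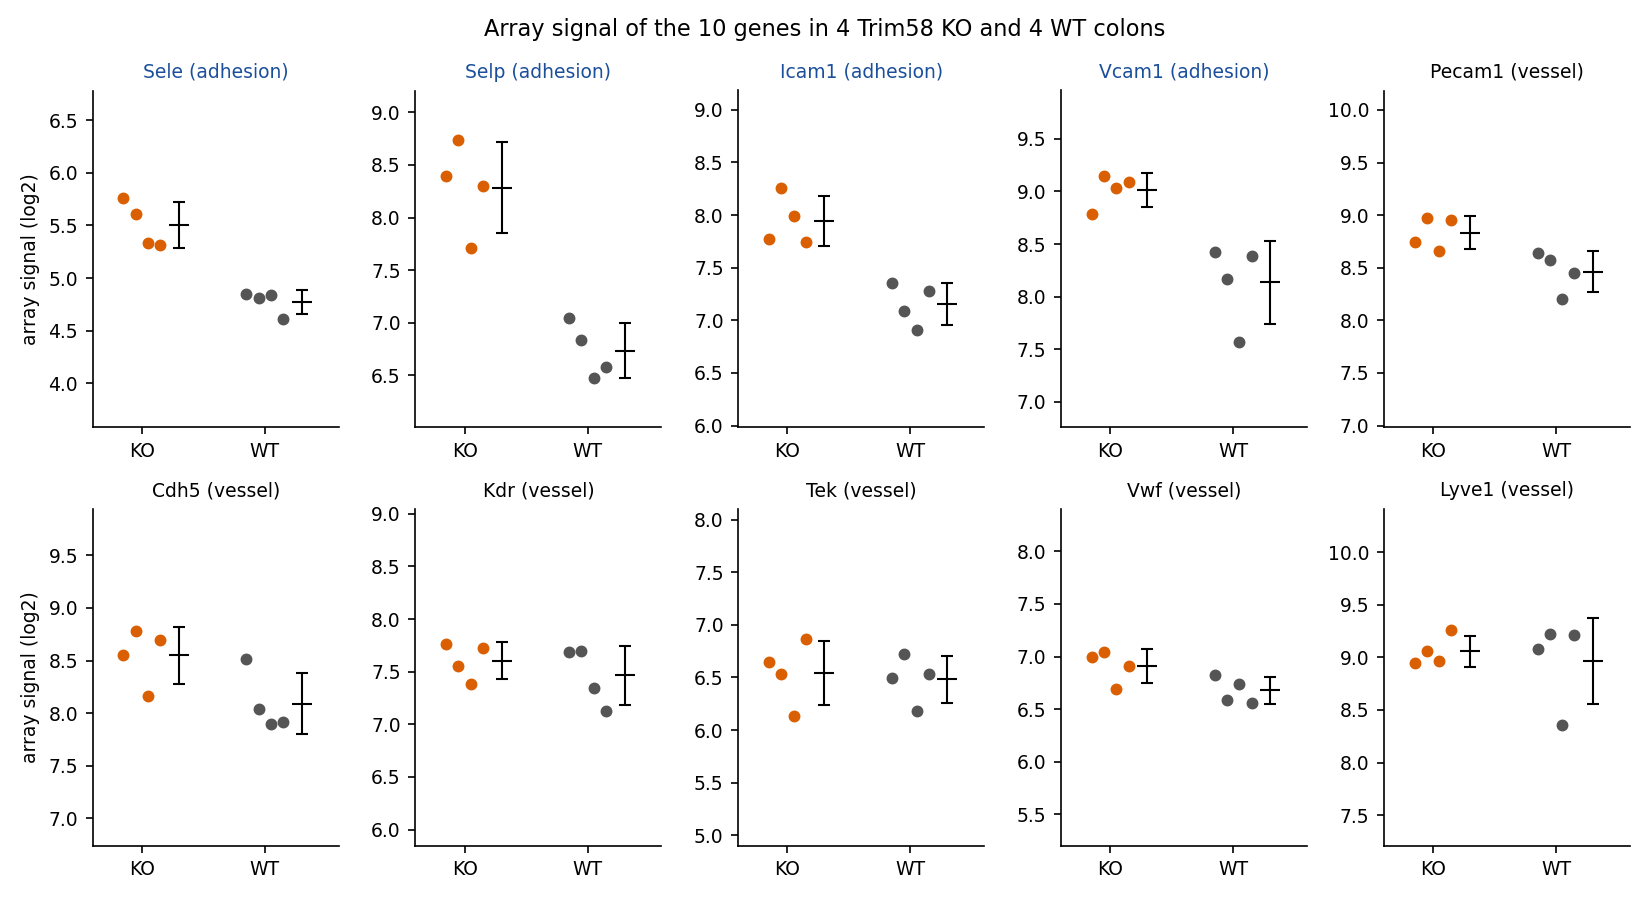
Array signal (log2) of the 4 adhesion genes (blue titles) and 6 vessel genes (black titles), 1 point per mouse with replicates 1 to 4 from left to right, KO orange and WT grey, with mean and SD beside them. Each panel spans the same range on its own axis, and the KO points of Sele, Selp, Icam1, Vcam1 and Pecam1 all lie above the WT points.

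PECAM-1 and VE-cadherin sit at the junctions between endothelial cells. Pecam1 read 8.75, 8.97, 8.66 and 8.96 in KO replicates 1 to 4, against 8.64, 8.57, 8.20 and 8.45 in WT replicates 1 to 4. The groups did not overlap, though by a margin of only 0.020, and the log2 difference of 0.37 ± 0.11 (SE, n = 4 each) did not pass (limma adjusted p = 0.169). Cdh5, the VE-cadherin gene, read 8.55, 8.78, 8.17 and 8.70 in KO replicates 1 to 4, against 8.52, 8.04, 7.90 and 7.91 in WT replicates 1 to 4. KO replicate 3 and WT replicate 1 made the groups overlap, and Cdh5 differed by 0.46 ± 0.17 on the log2 scale (SE, n = 4 each; limma adjusted p = 0.233).

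Kdr and Tek encode the main endothelial receptors for vascular endothelial growth factor and for angiopoietins. Kdr read 7.76, 7.55, 7.39 and 7.72 in KO replicates 1 to 4, against 7.69, 7.69, 7.35 and 7.13 in WT replicates 1 to 4. Tek read 6.65, 6.53, 6.14 and 6.86 in KO replicates 1 to 4, against 6.49, 6.72, 6.18 and 6.53 in WT replicates 1 to 4. Both genes overlapped widely between genotypes. On the log2 scale Kdr differed by 0.14 (95% interval -0.17 to 0.45, limma adjusted p = 0.715) and Tek by 0.06 (95% interval -0.29 to 0.42, limma adjusted p = 0.906). Both intervals include 0, so neither no difference nor a difference up to their ends is excluded.

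Von Willebrand factor tethers platelets to injured vessel walls. Vwf read 7.00, 7.05, 6.69 and 6.91 in KO replicates 1 to 4, against 6.83, 6.59, 6.74 and 6.56 in WT replicates 1 to 4. KO replicate 3 fell inside the WT range, and the log2 difference was 0.23 ± 0.10 (SE, n = 4 each; limma adjusted p = 0.334). LYVE-1 is a hyaluronan receptor of lymphatic endothelium. Lyve1 read 8.95, 9.06, 8.96 and 9.26 in KO replicates 1 to 4, against 9.08, 9.22, 8.36 and 9.21 in WT replicates 1 to 4. Apart from WT replicate 3, the WT arrays lay within the KO range, and the log2 difference was 0.09 (95% interval -0.31 to 0.49; limma adjusted p = 0.876).

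**Figure D2:**
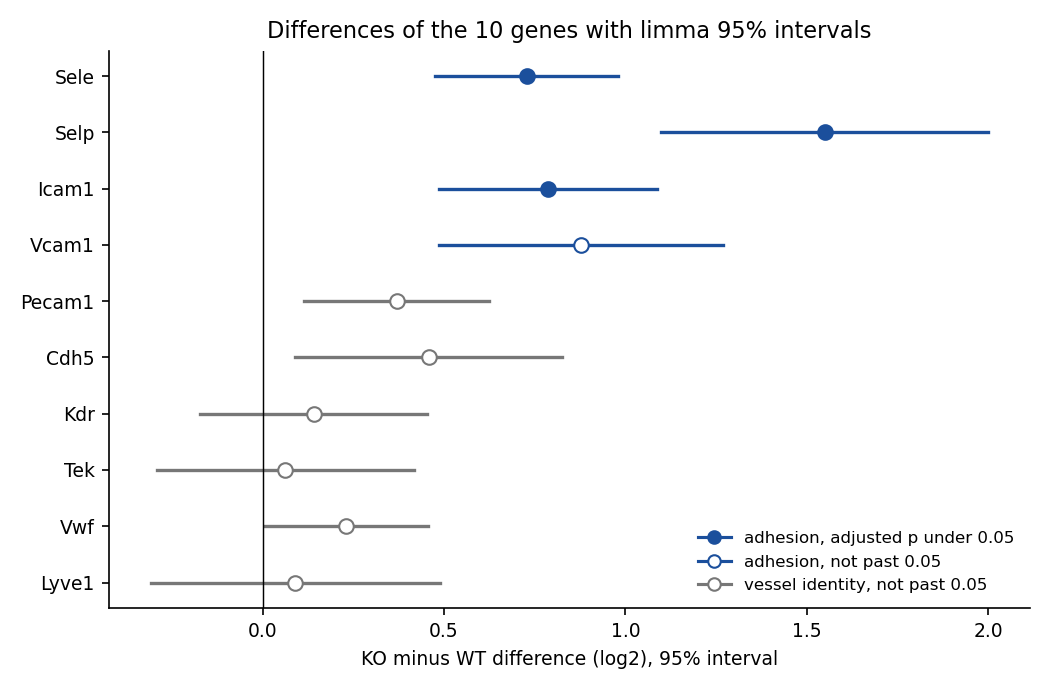
KO minus WT difference (log2) of each gene, with its limma 95% interval as a bar, adhesion genes blue and vessel genes grey. Filled points passed an adjusted p of 0.05 over all genes (Sele, Selp and Icam1), and the intervals of Kdr, Tek and Lyve1 cross 0.

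All 4 adhesion genes and 3 of the 6 vessel genes (Pecam1, Cdh5 and Vwf) had an unadjusted limma p under 0.05, all upwards, where 6.22% of all genes were higher and 8.10% lower by that rule. With the pancreatic covariate the 3 vessel genes no longer met it, at log2 differences of 0.19 for Pecam1, 0.08 for Cdh5 and 0.02 for Vwf. The 4 adhesion genes still did. The share of all genes under that rule was not taken for the covariate fit, so these counts have no background beside them. The KO arrays were all above the WT arrays in 4 of 4 adhesion genes and in 1 of 6 vessel genes, against 3.79% of all genes, and all below in none of the 10, against 5.02% of all genes. The median log2 difference was 0.83 for the adhesion genes and 0.19 for the vessel genes, with -0.01 over all genes. The lowest adhesion difference was 0.73 (Sele, interval 0.48 to 0.98), which may be understated, followed by 0.79 (Icam1, 0.49 to 1.09). The highest vessel difference was 0.46 (Cdh5, 0.09 to 0.82), and its interval overlapped both.

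Within each colon, the mean of the 4 adhesion genes was set against the mean of the 6 vessel genes, both as deviations from the WT mean of each gene. The adhesion mean stood at 0.98, 1.24, 0.82 and 0.91 in KO replicates 1 to 4, against 0.22, 0.02, -0.25 and 0.01 in WT replicates 1 to 4. The vessel mean stood at 0.25, 0.30, -0.03 and 0.38 in KO replicates 1 to 4, against 0.18, 0.11, -0.24 and -0.06 in WT replicates 1 to 4. Adhesion minus vessel was therefore 0.72, 0.94, 0.84 and 0.54 in the KO colons, and it was 0.04, -0.09, -0.01 and 0.07 in the WT colons, with a mean difference of 0.76 between genotypes. The 4 KO values of this gap lay above the 4 WT values. No p is given, because the 2 sets were chosen with earlier results known.

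**Figure D3:**
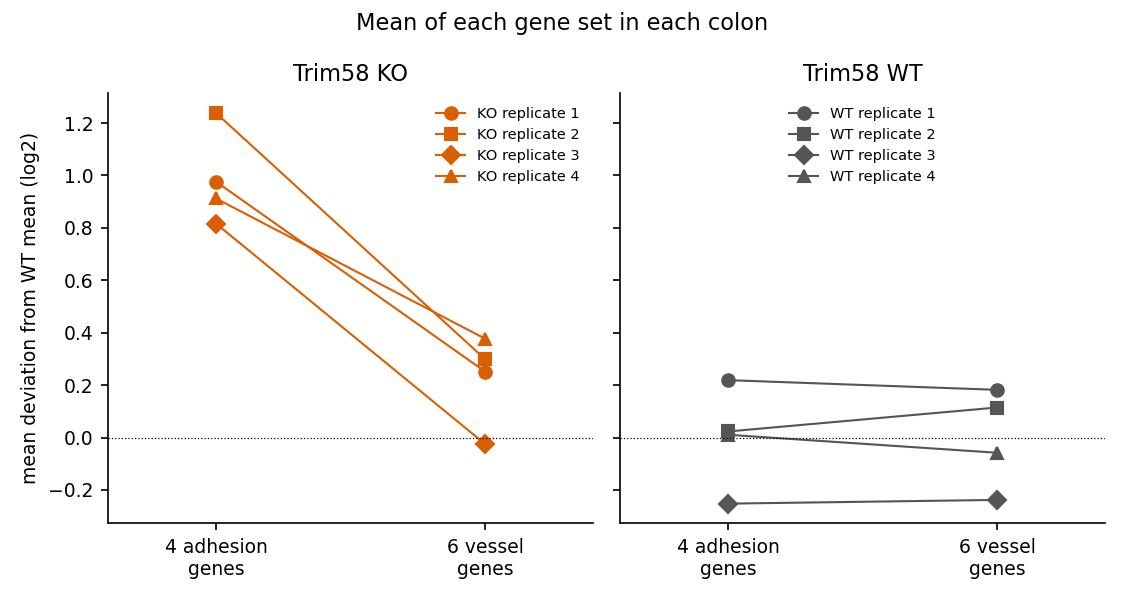
Mean deviation from the WT mean (log2) of the 4 adhesion genes and of the 6 vessel genes in each colon, KO on the left and WT on the right, with a line joining the 2 means of a mouse. In KO the adhesion means lie between 0.82 and 1.24 and the vessel means between -0.03 and 0.38, and in WT the lines are nearly level.

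The same gap did not hold for every adhesion gene when set against Pecam1 or Cdh5, the vessel genes with the largest differences. Ratios to Kdr, Tek, Vwf and Lyve1 were not taken. Set against Pecam1 within each array, Selp deviated from the WT mean ratio by 1.37, 1.497, 0.78 and 1.07 in KO replicates 1 to 4 and by at most 0.14 in WT. Against Cdh5, Selp was likewise higher in every KO array (lowest 0.89) than in every WT array (highest 0.15). For Vcam1 the ratio to Pecam1 kept the groups apart (lowest KO 0.36, highest WT 0.26) and the ratio to Cdh5 did not (0.19 and 0.42). For Sele and Icam1 the genotypes overlapped with either gene as the denominator, with mean log2 differences of 0.36 and 0.42 over Pecam1 and 0.27 and 0.33 over Cdh5.

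The genes also differed in how they varied among mice of a genotype. Over the 8 arrays, deviations from the genotype means had a median Pearson r of 0.54 over the 15 pairs of vessel genes and of 0.39 over the 6 pairs of adhesion genes, the same as over the 24 pairs of an adhesion with a vessel gene (0.39). The adhesion pairs reached from -0.38 (Sele and Vcam1) to 0.73 (Icam1 and Vcam1). Selp followed Cdh5 (r = 0.90), Vwf (r = 0.79) and Pecam1 (r = 0.79), whereas Vcam1 followed Lyve1 (r = 0.87), a pair that shares the low value of WT replicate 3. These values describe 8 arrays that share tissue composition and normalization.

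By the same measure, the genes most like each member among the other 22170 were Nup88 and Slc7a5 for Sele, Gm5144 and Cir1 for Selp, Pik3ap1 and Ctla4 for Icam1, and Hip1 and Rassf2 for Vcam1. For the vessel genes they were Fhl5 and Dclk1 for Pecam1, Adcy8 and Mpped2 for Cdh5, Rictor and Coq6 for Kdr, Ahnak2 and B4galt6 for Tek, Col4a2 and Ldhc for Vwf, and Fam20c and Cd93 for Lyve1. Their r lay between 0.97 and 0.99. These genes were picked for the highest r among 22170 candidates over few arrays, where high values can arise by chance. The r to be reached by chance was not tested, so the names give a ranking and do not show a relation between the genes.

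Further vessel genes were examined as lists, with no test of a list. Of 27 other endothelial identity genes none passed in either direction, 14 had a difference above 0, and their median log2 difference was 0.03. The gene with the smallest p, Ecscr, an endothelial cell surface regulator, differed by 0.33 on the log2 scale (limma adjusted p = 0.171). Without adjustment 4 of the 27 were higher and 1 lower. Of 8 measured lymphatic vessel genes none passed (1 higher without adjustment), with a median of 0.11, and Pdpn, the podoplanin gene, differed by 0.27 (log2, limma adjusted p = 0.193). Of 20 vessel growth factor and receptor genes none passed (2 higher and 1 lower without adjustment). Angptl4, a lipase inhibitor of the angiopoietin-like family, differed by 0.90 (log2, limma adjusted p = 0.0951), and Vegfa, the main vascular growth factor, -0.06. Of 10 pericyte and mural genes none passed (2 higher and 1 lower without adjustment), with the channel subunit gene Abcc9 at 0.51 (limma adjusted p = 0.125).

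Of 18 other measured genes of endothelial adhesion and activation none passed the limma test, 5 were higher and 2 lower without adjustment, 10 had a difference above 0, and the median log2 difference was 0.04. Ccl2, a monocyte chemokine, differed by 1.29 on the log2 scale (limma adjusted p = 0.0625). Madcam1, the gut addressin that binds lymphocyte integrins, read 7.42, 7.49, 7.44 and 7.62 in KO replicates 1 to 4, against 7.26, 7.01, 6.75 and 6.98 in WT replicates 1 to 4. Its groups did not overlap and its log2 difference was 0.50 (limma adjusted p = 0.0797). Icam2, an ICAM-1 relative of resting endothelium, had a log2 difference of 0.15 and Ackr1, a chemokine-binding protein of venules, 0.02 (limma adjusted p = 0.661 and 0.977). Vegfa, Madcam1, Icam2 and Ackr1 were named after their values were seen.

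Genes listed with the leukocyte partners of the adhesion molecules were higher in part. Of the 16 measured 2 passed, both upwards, and the list median was 0.23. The list also holds the adaptor gene Tyrobp and the glycosylation enzyme genes Fut4, Fut7, Gcnt1 and St3gal4, which are not themselves ligands. Itgam, the alpha chain of Mac-1 and a partner of ICAM-1, read 8.12, 8.61, 8.11 and 7.96 in KO replicates 1 to 4, against 7.43, 6.91, 6.72 and 7.34 in WT replicates 1 to 4. The groups did not overlap and the gene rose 2.14-fold (limma adjusted p = 0.0310). Cd44, a hyaluronan receptor that can carry E-selectin ligands, rose 1.48-fold (limma adjusted p = 0.0327). Selplg, which encodes the main P-selectin ligand, differed by 0.56 (log2, limma adjusted p = 0.289) and was picked for mention knowing its value.

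Of 20 cytokine and NF-kB feedback genes that act on endothelium 3 passed, all upwards. Il1b and Il1a, which encode both interleukin-1 forms, rose 10.4-fold and 5.17-fold (limma adjusted p = 0.00424 and 0.0125). The WT mean of Il1a (5.25) lay under the odorant receptor guide of 5.49, so that its fold may be understated. Il6 also passed (limma adjusted p = 0.0230), but its means of 4.77 in KO and 2.97 in WT (log2) both lay under that guide, and no fold is given. Without adjustment 9 of the 20 were higher and 0 lower, where 6.22% of all genes were higher and 8.10% lower. In 5 of the 20 all KO arrays lay above all WT arrays, against 3.79% of all genes. The list median was 0.29. Tnf, another inducer of the adhesion genes, differed by 0.41 (log2, limma adjusted p = 0.614), and the NF-kB inhibitor gene Nfkbia had 0.27 (limma adjusted p = 0.525). Both were named after their values were seen.

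**Figure D4:**
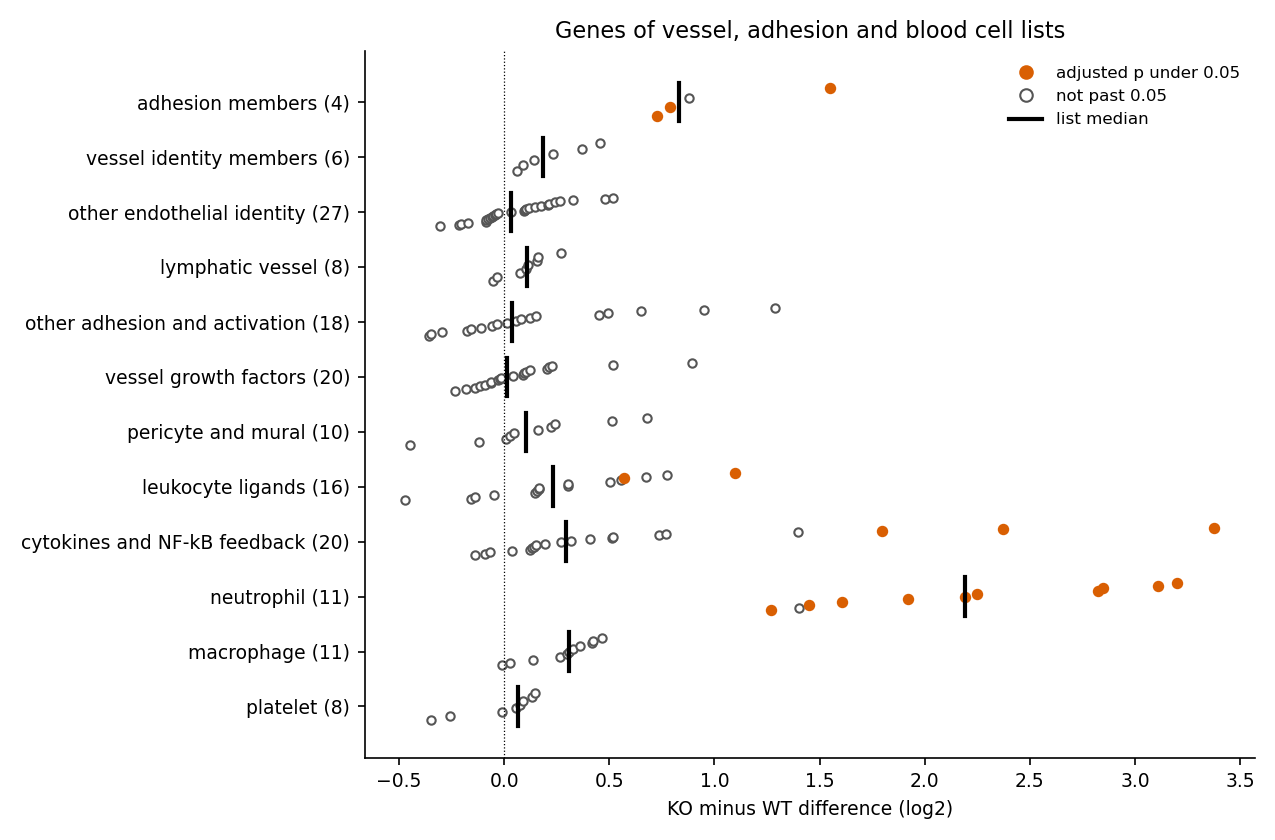
KO minus WT difference (log2) of every measured gene in 12 lists, with the number of genes in brackets, orange where the adjusted p was under 0.05 and open otherwise, and a black bar at the list median. The medians of the 5 vessel and mural lists other than the members lie between 0.02 and 0.11, and that of the neutrophil list at 2.19.

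The genotype differences of markers of other cells varied from list to list. Of 11 measured neutrophil genes 10 rose, and their mean was 1.73 to 2.76 above the WT mean in the KO arrays and between -0.31 and 0.24 in the WT arrays. S100a9, Stfa2l1 and S100a8 had the smallest p of the list (limma adjusted p = 0.000233, 0.000269 and 0.000802). Their KO means were 8.21, 6.55 and 8.28 and their WT means 5.10, 3.70 and 5.08 (log2). The WT means lay under the odorant receptor guide, so the differences may be understated and are not ranked. Of 11 macrophage genes none passed (2 higher without adjustment, Lyz2 at a log2 difference of 0.42 and limma adjusted p = 0.326), and the list mean overlapped between KO (0.02 to 0.42) and WT (-0.58 to 0.53). Of 9 follicle and stromal genes Cr2, a receptor of B cells and follicular dendritic cells, rose 2.96-fold (limma adjusted p = 0.0440), and the list mean was 0.56 to 0.80 in KO and -0.40 to 0.33 in WT. The part of these cells in the Icam1, Pecam1 and Vcam1 values was not tested.

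P-selectin is also made by platelets. None of 8 measured platelet and megakaryocyte genes passed, 1 was lower without adjustment (Gp6, log2 difference -0.35, limma adjusted p = 0.264), and the list mean lay between -0.05 and 0.09 in KO and between -0.09 and 0.09 in WT. The KO and WT means of Ppbp (4.78 and 4.80), Gp5 (5.26 and 5.13) and Gp6 (5.14 and 5.48) lay under the odorant receptor guide of 5.49. Low signal therefore limits what this list shows of platelets. Of 8 colon epithelium genes none passed (1 lower without adjustment), and Slc26a3, a chloride exchanger of colonocytes, differed by -0.62 (log2, limma adjusted p = 0.112). Of 7 fat and mesentery genes none passed (0 without adjustment), with Lep at 0.46 (limma adjusted p = 0.546).

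Pancreatic enzyme RNA was present in 3 KO samples. The mean of 8 measured enzyme genes stood 5.17, 6.18 and 5.92 above the WT mean in KO replicates 1, 2 and 4, at -0.19 in KO replicate 3 and between -0.08 and 0.08 in WT. None of them passed over all 8 arrays, although all 8 were higher without adjustment (Cel, log2 difference 5.47, limma adjusted p = 0.109). In KO replicate 3, the array without this signal, Selp lay 0.97, Icam1 0.84, Vcam1 0.90 and Sele 0.56 above their WT means, whereas Pecam1 lay 0.19, Cdh5 0.08, Vwf 0.01, Lyve1 -0.0042, Kdr -0.08 and Tek -0.35 from theirs. In the other 3 KO arrays Selp averaged 1.74, Icam1 0.77, Vcam1 0.87 and Sele 0.78, with Pecam1 at 0.43 and Cdh5 at 0.58. With the pancreatic covariate no member passed, and Selp had a log2 difference of 0.99 ± 0.22, Icam1 0.81 ± 0.22, Vcam1 0.88 ± 0.28 and Sele 0.59 ± 0.17 (SE, n = 4 each; limma adjusted p = 0.493, 0.667, 0.711 and 0.690), in a fit that called 2 of 22180 genes. Trim58 itself had a low signal in both genotypes (KO mean 5.05 ± 0.24, WT mean 5.12 ± 0.09, SD, n = 4 each; limma adjusted p = 0.839), both under the odorant receptor guide. Where its probe set lies relative to the deleted part was not given in the sources used here, so it does not check the labels.

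Calls of single adhesion genes depended on single arrays, while their differences stayed above 0. Selp passed in 7 of 8 fits without 1 array and missed without WT replicate 2 (limma adjusted p = 0.0541). Sele passed without KO replicate 3, KO replicate 4 or WT replicate 1, and missed without KO replicate 1, KO replicate 2, WT replicate 2, WT replicate 3 or WT replicate 4 (limma adjusted p = 0.0607, 0.0915, 0.0879, 0.0512 and 0.0715). Icam1 passed without KO replicate 4 or WT replicate 1, and missed without KO replicates 1, 2 or 3 or WT replicates 2, 3 or 4 (limma adjusted p = 0.0644, 0.0915, 0.0531, 0.145, 0.0657 and 0.0744). Vcam1 passed without WT replicate 3 (limma adjusted p = 0.0436). Over these fits the log2 difference lay between 1.398 and 1.74 for Selp, 0.64 and 0.79 for Sele, 0.68 and 0.85 for Icam1 and 0.69 and 0.98 for Vcam1.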

How the data were processed

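Total RNA of each colon was labelled and hybridised to 1 Affymetrix whole-transcript array, and per the labels each array is a separate mouse. The authors deposited log2 signals, 1 per probe set. Per the submitters' processing notes they come from RMA (background correction, quantile normalization, probe summary) run in Affymetrix Expression Console 1.4. Filters and scan batches were not given in the sources used here. Arrays give signal and not counts, and their number limits the precision. Array medians lay between 5.73 and 5.83.

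Of 41345 probe sets, 23521 carried 1 gene symbol, 1814 several and 16010 none in the platform annotation. Symbols were updated by Entrez identifier (GRCm38.p6 table, 23328 matched), and the brightest probe set per gene was kept, leaving 22180 genes with no filter. The genotypes were fitted without a covariate (lmFit and eBayes of limma 3.58.1, R 4.3.3). Exact two-sided permutation over 70 assignments gave 0.0286, the smallest p it allows, for the 4 adhesion genes and Pecam1. Any gene whose groups do not overlap gets this p (3.79% of all genes above and 5.02% below). It therefore repeats the lack of overlap and adds no further test. In data simulated for KO minus WT over 22180 genes, limma recovered 50% of 50 genes changed by 0.5 and 92% of 50 changed by 1 (log2), with 9 false calls. The simulated noise was drawn separately for each gene. It held no variation shared by the genes of an array, such as the pancreatic signal, so these figures may not carry over to the real arrays.

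Named genes were the 10 members, Trim58, the 3 or fewer called genes with the smallest p of each list (otherwise the 1 with the smallest p) and the 2 genes most like each member. Alternatives changed the variance model, array weights, normalization, centring, a filter on dim genes, the probe set rule, a replicate block, a pancreatic covariate and the arrays used. The members, lists and tests were chosen with earlier results of these data known.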

Additional observations from a re-analysis of the deposited data

Results flagged for a closer look

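Values were flagged where the highest or lowest of the 4 arrays of a genotype lay far from the other 3. A rule of this kind marks about 1 in 20 groups by chance, and 9 of 94 groups were marked. WT replicate 3 was low for Lyve1, at 8.36 against 9.08 to 9.22 in the other WT arrays (log2). The same array was low in the mean deviation of 3 lists, the other endothelial identity genes (-0.19, others 0.04 to 0.08), the lymphatic vessel genes (-0.24, others 0.08 to 0.09) and the pericyte and mural genes (-0.25, others 0.05 to 0.10). WT replicate 4 was low for Sele, at 4.61 against 4.81 to 4.85. KO replicate 3 stood apart in the mean of the pancreatic enzyme genes (-0.19, others 5.17 to 6.18) and in Cel (5.05, others 11.7 to 12.6). KO replicate 4 was high in the mean of the platelet and megakaryocyte genes (0.090, others -0.05 to -0.04) and in the leptin gene Lep (6.31, others 4.88 to 4.94).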

How the results depend on the processing

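Over all genes, the main counts were 87 higher and 41 lower. They were 101 higher and 64 lower with a mean-variance trend and robust variance, and 130 higher and 69 lower with array weights. Without the dimmest genes (the lowest tertile of mean level) they were 123 higher and 80 lower. With the replicate number as a block they were 56 higher and 8 lower, and with the pancreatic covariate 2 higher and 0 lower. Without 1 array in turn they ranged from 24 (without WT replicate 2) to 172 (without KO replicate 3) higher and from 1 (without WT replicate 2) to 80 (without KO replicate 3) lower. Of the 10 members, 3 passed in the main fit, 0 with the pancreatic covariate and 0 to 3 without 1 array. Vcam1 passed with array weights, repeated quantile normalization and without the dimmest genes (limma adjusted p = 0.0379, 0.0462 and 0.0484), and Sele was itself left out as dim in the last of these. The replicate numbers do not pair the mice (correlations of same-numbered deviations -0.16 to 0.05), and with that block Icam1 missed the threshold (limma adjusted p = 0.114). With the pancreatic covariate Kdr, Tek and Lyve1, which did not pass, turned to -0.053, -0.31 and -0.0038. Without 1 array Tek ranged from -0.044 to 0.20 and Lyve1 from -0.11 to 0.17. Adhesion minus vessel lay between 0.70 and 0.85 in the 12 alternatives that moved it. The highest was without the dimmest genes, where the adhesion mean lacked Sele. Another 4 (the variance model, equal medians, probe set averaging and the block) left it as it was by construction. The cause of these changes was not tested. Averaging probe sets left the members as they were, since each has 1. Low signal over background limits Sele.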
